A study of Mus musculus with 10 samples.

Results

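The 3 genes described here, Dpy19l1, Dpy19l3 and Dpy19l4, are members of the Dpy19-like family among the 31053 genes counted in single-cell RNA sequencing of embryonic mouse cortex. They were chosen by name, on a rise of Dpy19l1 in deep-layer neurons of mutant embryos, and each was read per embryo and per cell class in cells with at least 1000 unique molecular identifiers (UMIs, counted RNA molecules) and at most 10% mitochondrial UMIs. The remaining family gene in the matrices, Dpy19l2, was read beside them. Cortex was taken at E16.5 from 3 Gatad2b wild-type embryos (WT), 4 heterozygous embryos with 1 stop allele (Het, Gatad2b stop/+) and 3 homozygous embryos with 2 (KO, Gatad2b stop/stop), and each embryo gave 1 library. The allele is Gatad2b tm1a(EUCOMM)Hmgu, a trapping cassette inserted in an intron on a C57BL/6N-A tm1Brd background. It leaves the coding exons in the genome in every cell from conception, so Gatad2b UMIs need not fall to 0, and the mutation is not limited to 1 cell type. Gatad2b encodes a subunit of the NuRD chromatin remodelling complex.

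DPY19L proteins are multipass membrane enzymes of the endoplasmic reticulum that join a mannose, taken from dolichol-phosphate-mannose, to a carbon atom of tryptophan in proteins entering the secretory pathway. Their targets carry thrombospondin type 1 repeats, such as the netrin receptors of the UNC5 family and the ADAMTS proteases, or the tryptophan-rich motif of type I cytokine receptors. DPY19L1 and DPY19L3 act on different tryptophans of a thrombospondin repeat, DPY19L2 is known for the formation of the sperm acrosome, and less is known of DPY19L4. Dpy19l1 is needed for the radial migration of glutamatergic neurons in the developing mouse cortex, in which newborn neurons climb from the ventricular side towards the pia and later-born upper-layer neurons pass the deep layers.

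In GENCODE vM21 on GRCm38, all lie on the minus strand. Dpy19l1 (ENSMUSG00000043067) spans chr9:24411776-24503140 and has 23 exons in its longest transcript. Its neighbour Dpy19l2 (ENSMUSG00000085576) spans chr9:24557047-24696293, Dpy19l3 (ENSMUSG00000043671) chr7:35685165-35754454 and Dpy19l4 (ENSMUSG00000045205) chr4:11261315-11322137. An antisense gene, Gm10701, overlaps Dpy19l1 and held 15 UMIs in all kept cells beside 124374 of Dpy19l1. The lincRNA Gm26663 on the opposite strand overlaps Dpy19l4 and held 148 UMIs beside 15308. Dpy19l2 had 175 UMIs.

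The promoters of Dpy19l1, Dpy19l3 and Dpy19l2 are shown because the results turn on Dpy19l1, Dpy19l3 has another pattern over the classes, and Dpy19l2 adjoins Dpy19l1 on chromosome 9 but was hardly detected. Each line holds the RefSeq sequence (GRCm38.p6) from 250 bases before to 50 bases after the annotated start, 5′ to 3′ on the minus strand, with every CG dinucleotide in capitals. The windows are chr9:24503091-24503390 for Dpy19l1, chr7:35754405-35754704 for Dpy19l3 and chr9:24696244-24696543 for Dpy19l2.
Dpy19l1: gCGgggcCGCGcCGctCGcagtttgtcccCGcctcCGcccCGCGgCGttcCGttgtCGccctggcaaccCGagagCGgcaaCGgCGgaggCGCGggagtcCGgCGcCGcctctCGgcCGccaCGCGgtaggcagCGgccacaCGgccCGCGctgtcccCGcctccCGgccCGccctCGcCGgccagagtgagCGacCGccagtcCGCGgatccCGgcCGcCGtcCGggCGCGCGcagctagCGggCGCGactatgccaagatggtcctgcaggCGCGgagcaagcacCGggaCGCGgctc
Dpy19l3: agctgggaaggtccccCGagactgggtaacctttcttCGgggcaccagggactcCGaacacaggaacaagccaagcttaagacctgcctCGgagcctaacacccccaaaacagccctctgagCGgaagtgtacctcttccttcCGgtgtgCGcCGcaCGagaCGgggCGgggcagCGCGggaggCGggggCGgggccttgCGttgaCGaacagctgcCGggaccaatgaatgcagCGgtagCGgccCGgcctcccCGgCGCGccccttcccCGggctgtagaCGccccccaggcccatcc
Dpy19l2: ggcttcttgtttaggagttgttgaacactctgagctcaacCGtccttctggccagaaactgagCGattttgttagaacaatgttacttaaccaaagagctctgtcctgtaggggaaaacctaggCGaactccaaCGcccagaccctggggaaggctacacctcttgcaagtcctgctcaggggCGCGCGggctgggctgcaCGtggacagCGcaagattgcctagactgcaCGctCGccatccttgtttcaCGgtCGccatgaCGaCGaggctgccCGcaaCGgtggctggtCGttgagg
The Dpy19l1 window held 53 CG dinucleotides and 78.7% G and C, the Dpy19l3 window 26 and 68.0%, and the Dpy19l2 window 18 and 56.7%. CG reads the same on both strands, so each was counted once. Over 32851 promoter windows of the same length the median was 7. At least as many as in Dpy19l1 were found in 0.451% of the windows, at least as many as in Dpy19l3 in 16.9% and at least as many as in Dpy19l2 in 29.7%. These counts describe the windows and were not tested against expression.

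A total of 65779 cells was kept from 80071 barcodes, with 5147 to 8103 cells and 82872641 to 123737385 UMIs per embryo. Pairs of libraries shared 4 to 19 barcodes. Gatad2b, in counts per 1000000 scaled by TMM (TMM CPM), lay between 129.7 and 137.4 in WT, 90.2 and 97.0 in Het and 54.1 and 60.3 in KO over all cells outside the layer V-VI-like class, so each embryo followed its label. Library names carried 1 of 2 prefixes. WT embryos 1 to 3 and Het 4 shared one and Het 1 to 3 and KO 1 to 3 the other, and what a prefix stands for is not given in the sources used here. KO and WT libraries never shared a prefix, so values with the prefix as a covariate, and KO against Het embryos of the same prefix, are given beside the main results. The prefix term can be estimated only from Het 4 against Het 1 to 3. Values with it, and calls kept or lost with it, therefore rest on the single library of Het 4 and cannot part genotype from prefix.

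Among the named classes of WT embryos Dpy19l1 was highest in layer I-like and layer II-IV-like cells and about equal in layer V-VI-like, radial glia-like and subventricular zone-like cells. In plain counts per 1000000 (CPM), which count RNA molecules and are not compared between genes, Dpy19l1 stood at 163 ± 17.5 (SD, n = 3 embryos) in layer I-like cells and 157 ± 12.5 in layer II-IV-like cells, whose ranges overlap. The level was 77.0 ± 9.68 in subventricular zone-like cells, 76.3 ± 1.21 in radial glia-like cells and 75.0 ± 8.95 in layer V-VI-like cells, which overlap each other and lie below every layer II-IV-like value. Mural or fibroblast-like cells followed at 46.1 ± 5.52, microglia-like cells at 40.4 ± 16.7, interneuron-like cells at 36.5 ± 5.07 and mitotic-like cells at 26.3 ± 3.54. Of these neighbours, the first 3 overlap in turn. Striatal inhibitory-like cells had 12.3 ± 1.70 and erythroid-like cells 6.61 ± 2.11. The latter were taken as a background of free RNA, but whether they lack the gene was not tested.

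The class order differed for the other members. Dpy19l3 was highest in layer V-VI-like cells at 27.5 ± 2.87 CPM, radial glia-like cells at 25.5 ± 4.18 and subventricular zone-like cells at 23.4 ± 0.740, which overlap, and stood at 14.1 ± 0.344 in layer II-IV-like cells. Dpy19l4 was highest in microglia-like cells at 42.2 ± 13.6, from only 12 to 17 UMIs per embryo, followed by radial glia-like cells at 28.9 ± 5.998, which overlap, and lowest among neurons in layer II-IV-like cells at 12.03 ± 0.392 and layer V-VI-like cells at 11.8 ± 0.0936. Dpy19l2 did not exceed a mean of 0.95 CPM in any WT class that had 20 or more cells per embryo.

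**Figure D1:**
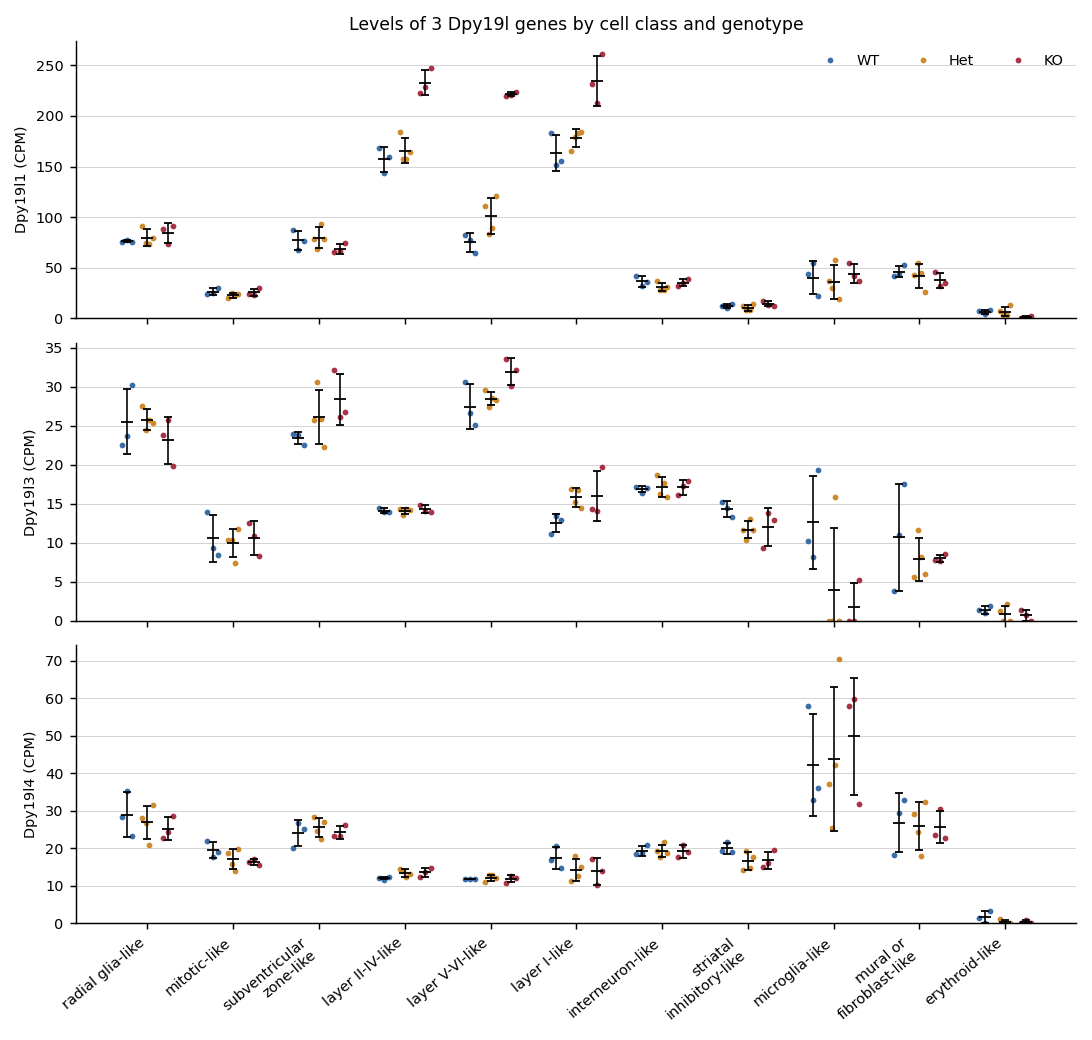
CPM of Dpy19l1, Dpy19l3 and Dpy19l4 (vertical axes) by cell class, with 1 point per embryo coloured by genotype and the mean ± SD in black. Dpy19l1 in WT is highest in layer I-like and layer II-IV-like cells (163 and 157 CPM), and its KO points stand above the WT points in the 3 layer classes.

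Among the named classes, detection of Dpy19l1 in single cells was also highest in layer I-like and layer II-IV-like cells. Their order was the other way after thinning, with ranges that overlap. After each cell was thinned to 3000 UMIs, Dpy19l1 was found in 35.3% ± 2.00 of WT layer II-IV-like cells, 33.0% ± 3.54 of layer I-like cells, 19.9% ± 2.30 of layer V-VI-like cells, 7.21% ± 0.70 of interneuron-like cells and 1.60% ± 0.482 of erythroid-like cells (SD, n = 3 embryos). Cells of unnamed clusters stood at 32.9% ± 1.89 after thinning, near layer I-like cells. Before thinning the shares were 75.5% in layer I-like cells, 71.8% in layer II-IV-like cells and 4.41% in erythroid-like cells. The medians were 14800 UMIs per cell in layer II-IV-like cells and 8382 in erythroid-like cells. Thinning left out 28 of 6251 layer II-IV-like cells and 146 of 618 erythroid-like cells of WT embryos.

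The genes whose pattern over the 11 classes was closest to each member were found among 12157 genes, by Pearson's r on log2(CPM + 1) of WT means. For Dpy19l1 these were Abhd14a (0.94), Cacna2d1 (0.94), an accessory subunit of voltage-gated calcium channels, Ppp2r1b (0.91), a scaffold subunit of protein phosphatase 2A, Slc37a4 (0.90) and Sh3bgrl2 (0.90). For Dpy19l3 they were Coq3, Pex3, Dbt, Glmn and Hacd3, at 0.95 to 0.96. For Dpy19l4 they included Snx17 (0.99), Pign (0.98), which acts in the synthesis of GPI anchors, Zbtb1 and Pgd. Between the members r was 0.65 for Dpy19l1 and Dpy19l3, 0.44 for Dpy19l1 and Dpy19l4 and 0.73 for Dpy19l3 and Dpy19l4. All 11 points come from the same 3 libraries and share the low value of erythroid-like cells, so these are descriptions.

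In layer V-VI-like cells the values that chose the genes are given without a test. Dpy19l1 stood at 81.4, 77.3 and 63.2 TMM CPM in the WT embryos, at 111.5, 83.4, 88.9 and 121.3 in the Het embryos and at 228.8, 221.6 and 222.8 in the KO embryos. Every Het value lay above every WT value, by a small margin for Het 2, and the KO values lay far above both. The fitted log2 fold change was 0.45 in Het and 1.60 in KO, a fold of 3.04, and with the prefix as a covariate 0.71 and 1.95. Dpy19l3 differed less, with a log2 fold change of 0.26 in KO (24.4 to 30.2 TMM CPM in WT and 30.3 to 34.9 in KO), and Dpy19l4 by 0.04. Summed markers of layer V-VI in this class were 1446 to 1517 CPM in WT and 1567 to 1668 in KO, those of layer II-IV 459 to 573 and 440 to 510, and those of interneurons 210 to 217 and 86.9 to 113. The part of the interneuron markers in the Dpy19l1 values was not tested.

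The same direction was seen in each of the 3 clusters that make up the class. In the cluster with Ldb2 and Fezf2 among its leading genes, which scored slightly higher for layer II-IV than for layer V-VI and was named from those genes, Dpy19l1 was 82.1 to 94.1 TMM CPM in WT, 104.4 to 143.3 in Het, with 233.9 to 254.5 in KO. In the cluster led by Hs3st4 and Tle4, of layer VI type by its markers, it was 74.9 to 88.1 in WT, 94.1 to 139.2 in Het, with 280.0 to 283.3 in KO. In the cluster led by Crym and Grp it was 42.7 to 53.1, 54.1 to 71.4 and 138.4 to 146.8. No KO value overlapped a WT or Het value in these clusters. The high Dpy19l3 level of the class came from the Hs3st4 and Tle4 cluster, with 49.0 to 54.5 TMM CPM in WT and 54.7 to 70.1 in KO, against 13.8 to 21.0 in WT in the other clusters.

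**Figure D2:**
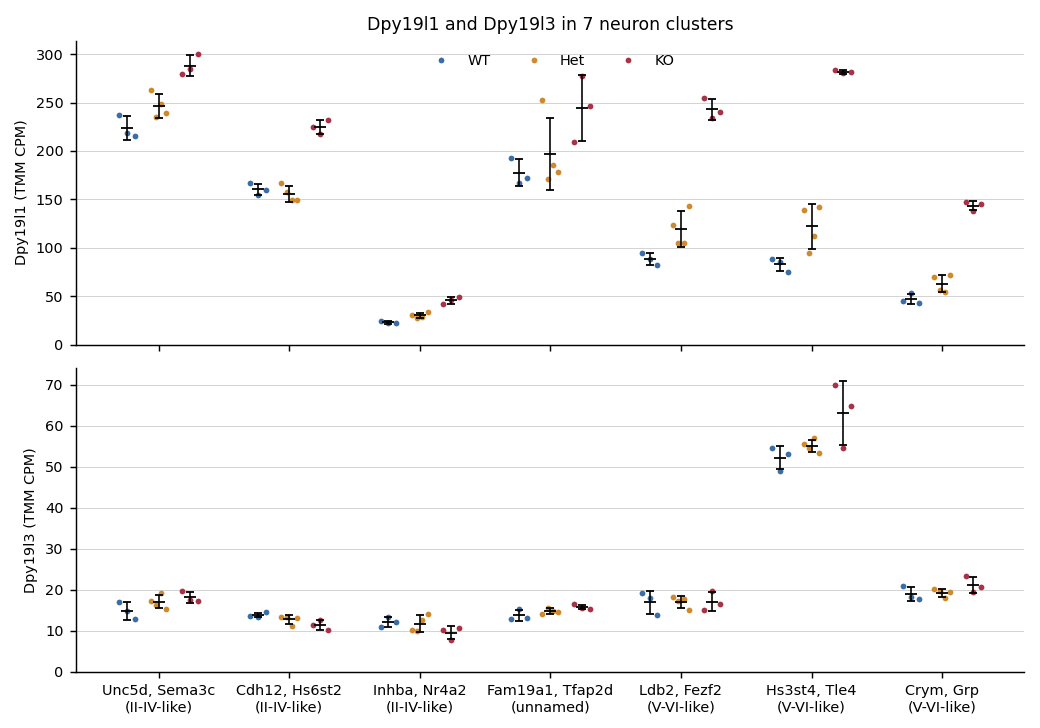
TMM CPM of Dpy19l1 (top) and Dpy19l3 (bottom) in 7 clusters of neurons, with 1 point per embryo coloured by genotype and the mean ± SD in black. KO points of Dpy19l1 lie above the WT points in every cluster shown, and Dpy19l3 is highest in the Hs3st4 and Tle4 cluster (49.0 to 54.5 in WT).

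Set against layer II-IV-like cells of the same embryo, the Dpy19l1 level of the deep layers was nearer to the upper-layer level in KO, though still below it in each of the 3 embryos. The ratio of layer V-VI-like to layer II-IV-like CPM was 0.49, 0.54 and 0.41 in the WT embryos. It was 0.61, 0.53, 0.57 and 0.74 in the Het embryos, and 0.99, 0.96 and 0.91 in the KO embryos. WT and Het embryos overlap at Het 2, and the KO ratios lie near 1 and above both. This ratio uses the deep-layer values that chose the genes and carries no test.

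Outside the layer V-VI-like class Dpy19l1 was higher in KO and Dpy19l3 and Dpy19l4 were not called. UMIs were summed per embryo and tested over all genes with edgeR's quasi-likelihood test, and a gene was called where the Benjamini-Hochberg adjusted p was under 0.05 and the log2 fold change exceeded 0.25 in size. Dpy19l1 stood at 117.3, 96.4 and 104.6 TMM CPM in WT, at 130.3, 104.7, 102.5 and 105.2 in Het and at 141.3, 144.7 and 145.7 in KO. KO lay above every other embryo, while Het overlapped WT with Het 1 alone above it. Its log2 fold change was 0.44 ± 0.0913 (SE) in KO against WT (adjusted p = 0.00376), 0.06 ± 0.0854 in Het against WT (adjusted p = 0.70) and 0.38 ± 0.0848 in KO against Het (adjusted p = 0.0228). Of all genes tested, 25.3% were called in KO against WT, 4.59% in Het against WT and 4.64% in KO against Het, so 1 of the 3 members called in KO is near the share of all genes.

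The layer V-VI-like class held 12213 of the 65779 kept cells, a smaller share than that of the study's layer V-VI clusters. Neurons that the study counts as deep-layer may thus lie among the summed cells. This test is then not fully apart from the values that chose the genes. The summed cells included 8342 of unnamed clusters, which may hold deep-layer neurons. Without them the KO log2 fold change of Dpy19l1 was 0.43 (adjusted p = 0.00701), and as a mean over named classes with equal weight, by limma, it was 0.28 (adjusted p = 0.0119). The call of Dpy19l1 in these summed cells was lost with the library prefix as a covariate. The log2 fold change of Dpy19l1 in KO against WT was then 0.33 (adjusted p = 0.22). Between KO and the 3 Het embryos of the same prefix it was 0.35 (adjusted p = 0.034). The KO against Het call was lost when any of Het 2, Het 3, KO 1, KO 2 or KO 3 was left out (adjusted p = 0.061 to 0.093). Layer II-IV-like cells made up 29.6% to 36.4% of the summed cells in WT, 28.3% to 37.2% in Het, highest in Het 1, and 30.0% to 32.7% in KO. Dpy19l3 had a log2 fold change of 0.10 ± 0.0484 in KO (14.9 to 15.4 TMM CPM in WT, 15.8 to 16.9 in KO, adjusted p = 0.13) and Dpy19l4 of 0.07 ± 0.0741 (14.8 to 16.1 and 15.4 to 17.2, adjusted p = 0.46). Fewer cells of a class and less RNA per cell cannot be told apart in these sums.

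Layer II-IV-like cells, named for upper-layer projection neurons, showed the difference within 1 class. The class held 17007 of the 65779 kept cells, a larger share than that of the study's layer II-IV cluster. Neurons that the study counts as deep-layer may thus lie in it. The test in this class is then also not fully apart from the values that chose the genes. The largest of its 3 clusters, led by Unc5d and Sema3c with 7873 cells, scored highest for layer II-IV but had 0 of its markers among the 10 leading genes, and the subventricular zone scored next. Dpy19l1 was at 166.7, 141.7 and 156.0 TMM CPM in WT, at 186.2, 158.0, 156.9 and 164.6 in Het and at 229.9, 230.3 and 243.1 in KO. The KO embryos stood above all others and Het overlapped WT. The log2 fold change was 0.61 ± 0.0654 in KO against WT (adjusted p = 5.13e-06), a fold of 1.53, and 0.50 ± 0.0607 in KO against Het (adjusted p = 4.87e-05). In Het against WT it was 0.11 ± 0.0613 (adjusted p = 0.27). The call held with the prefix as a covariate (0.58, adjusted p = 0.0015) and within 1 prefix, KO against Het (0.49, adjusted p = 2.63e-05). In this class 30.7% of the genes tested were called in KO against WT, 11.9% in KO against Het and 6.98% in Het against WT. After thinning, 47.9% ± 2.07 of KO cells held a Dpy19l1 UMI, above the 35.3% ± 2.00 of WT cells (SD, n = 3).

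Dpy19l3 and Dpy19l4 were not called there. Dpy19l3 was at 13.6 to 14.4 TMM CPM in WT and 13.8 to 15.3 in KO, a log2 fold change of 0.07 ± 0.0605 (adjusted p = 0.40). Dpy19l4 was at 11.5 to 12.1 in WT, 12.2 to 14.6 in Het, with 12.6 to 14.5 in KO, so that both mutant groups lay above WT, and its KO log2 fold change of 0.21 ± 0.0783 passed the adjusted p (0.0441) but not the threshold on size. It passed both at clustering resolution 0.8 (0.27, adjusted p = 0.0185), where the class takes in deep-layer cells, and without KO 1 (0.26, adjusted p = 0.0307).

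Composition of the class moved with genotype. The cluster led by Unc5d and Sema3c, the one with the highest Dpy19l1, made up 34.7% to 40.8% of layer II-IV-like cells in WT, 41.6% to 49.5% in Het, with 54.4% to 61.2% in KO, and the borders of clusters rest in part on genes that differ between genotypes. The cluster led by Inhba and Nr4a2, the one with the lowest Dpy19l1, made up 11.5% to 16.7% in WT and 6.60% to 8.53% in KO. Without it the KO log2 fold change of Dpy19l1 in the class was 0.49 (adjusted p = 2.82e-06). Summed markers of the subventricular zone were 170 to 180 CPM in WT and 293 to 365 in KO, those of layer V-VI 285 to 314 and 402 to 432, those of layer II-IV 1432 to 1457 and 1128 to 1195, and those of interneurons 85.4 to 123.5 and 19.1 to 26.9. No marker of these lists was at 0 in either group. Their part in the Dpy19l1 difference was not tested. Each cluster was also tested by itself, and composition within a cluster was not tested.

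Within each of the 3 clusters Dpy19l1 was higher in KO, by amounts that differed in size. These clusters were tested after their values had been seen, and the Inhba and Nr4a2 cluster had 90 cells in KO 2, under the 100 per embryo asked of a class. In the Unc5d and Sema3c cluster Dpy19l1 was 215.0 to 237.5 TMM CPM in WT and 279.6 to 299.9 in KO, a log2 fold change of 0.36 ± 0.0537 (adjusted p = 6.6e-05) where 25.9% of the genes were called. In the cluster with Cdh12 and Hs6st2 among its leading genes it was 154.9 to 166.4 in WT and 217.7 to 231.4 in KO, a log2 fold change of 0.50 ± 0.0507 (adjusted p = 1.22e-06) where 27.5% were called. In the cluster led by Inhba and Nr4a2, with the lowest level, it was 21.9 to 24.7 in WT, 27.8 to 33.9 in Het, with 41.9 to 49.2 in KO, with no overlap between the groups. There the log2 fold change was 1.00 ± 0.103 in KO (adjusted p = 5.27e-07) and 0.40 ± 0.0935 in Het (adjusted p = 0.0268), where 17.2% and 2.02% of the genes were called. The Het call was lost with DESeq2 (adjusted p = 0.082) and without WT 2, WT 3 or Het 1 (adjusted p = 0.084 to 0.18), at log2 fold changes of 0.36 to 0.40. In Het the other clusters were not called for Dpy19l1, at 0.14 ± 0.0507 and -0.04 ± 0.0476, with 5.57% and 6.48% of genes called.

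The other members were called in the Cdh12 and Hs6st2 cluster, where 27.5% of all genes tested were called in KO and 6.48% in Het. Dpy19l4 rose from 10.2 to 10.8 TMM CPM in WT to 11.2 to 14.6 in Het (log2 fold change 0.34 ± 0.0914, adjusted p = 0.0282) and 12.7 to 13.5 in KO (0.33 ± 0.10, adjusted p = 0.0166). Dpy19l3 fell from 13.4 to 14.5 in WT to 10.2 to 12.5 in KO (log2 fold change -0.27 ± 0.0971, adjusted p = 0.0411). In the Unc5d and Sema3c cluster Dpy19l3 went the other way in KO and was not called (0.27 ± 0.109, adjusted p = 0.059). It was -0.32 ± 0.195 in the Inhba and Nr4a2 cluster, also not called. Dpy19l4 in KO was at -0.04 and -0.02 in these clusters and not called. The calls in the Cdh12 and Hs6st2 cluster depended on the libraries and the model, while the direction did not turn where a call was lost. The log2 fold change was then -0.19 to -0.28 for Dpy19l3 and 0.29 to 0.45 for Dpy19l4. The Dpy19l3 call was lost with DESeq2 (adjusted p = 0.12), with no filter on low counts (0.056), with the prefix as a covariate (0.46) and without WT 1, WT 2, WT 3, KO 1 or KO 3 (adjusted p = 0.069 to 0.18), and the Dpy19l4 call in KO with the prefix (adjusted p = 0.095) and without KO 2 (0.066). In Het the Dpy19l4 call was lost with DESeq2 (adjusted p = 0.063), with the prefix (0.13) and without WT 1, WT 2, WT 3, Het 1 or Het 2 (adjusted p = 0.056 to 0.094). A further cluster of neurons, led by Fam19a1 and Tfap2d, was left without a name because no marker list passed. It scored 0.18 for layer II-IV and 0.16 for layer V-VI, so it may hold deep-layer neurons, whose values chose the gene. In it Dpy19l1 was 166.9 to 193.1 TMM CPM in WT and 209.7 to 277.1 in KO (log2 fold change 0.47 ± 0.129, adjusted p = 0.0334), where 8.94% of genes were called. In Het it was not called, at 0.15 ± 0.121 (adjusted p = 0.65), where 0.0986% were. This call was lost with the prefix as a covariate (log2 fold change 0.27, adjusted p = 0.73), with DESeq2 (0.47, adjusted p = 0.10) and without WT 2, WT 3, KO 2 or KO 3 (0.36 to 0.45, adjusted p = 0.087 to 0.15).

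Layer I-like cells, which held too few cells per embryo for a test, had Dpy19l1 at 151.8 to 181.7 TMM CPM in WT, 165.0 to 183.9 in Het, with 207.2 to 262.2 in KO. KO lay above the other groups here too, while Dpy19l4 at 14.7 to 20.6 in WT and 9.90 to 17.7 in KO overlapped.

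Classes of progenitors and inhibitory neurons gave no call for any member. In subventricular zone-like cells, the intermediate progenitors, Dpy19l1 was 66.4 to 85.1 TMM CPM in WT and 67.3 to 74.9 in KO (log2 fold change -0.11 ± 0.103, adjusted p = 0.51), where 17.1% of genes were called in KO and 0.271% in Het. Dpy19l3 in these cells was 22.0 to 23.3 in WT and 26.8 to 33.2 in KO, with no overlap, but missed the threshold (0.34 ± 0.125, adjusted p = 0.068). It was called with no filter on low counts, with only the 2 groups compared, at resolution 0.8 and without Het 2 or Het 4 (adjusted p = 0.021 to 0.049). In radial glia-like cells, the ventricular progenitors, Dpy19l1 was 72.6 to 76.7 in WT and 75.4 to 93.0 in KO (0.21 ± 0.0986, adjusted p = 0.14), where 19.7% of genes were called in KO and 1.88% in Het. Mitotic-like cells had 22.9 to 30.0 in WT and 23.5 to 29.9 in KO (0.01 ± 0.137), where 7.34% were called in KO and 0.704% in Het. This class scored slightly higher for the ganglionic eminence than for mitosis, and markers of the former summed to 2332 to 2497 CPM in WT and 2246 to 2538 in KO.

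Interneuron-like cells had 31.6 to 42.1 TMM CPM of Dpy19l1 in WT and 32.8 to 37.7 in KO (-0.01 ± 0.128), where 8.49% of genes were called in KO. In Het 0% were, with 1757 of 13000 genes at an unadjusted p under 0.05 in edgeR and 41 genes called by DESeq2. Striatal inhibitory-like cells had 10.4 to 13.9 in WT and 12.5 to 17.4 in KO (0.24 ± 0.199, adjusted p = 0.43), where 17.3% were called in KO and 2.55% in Het, and the KO value was 0.84 with the prefix as a covariate (adjusted p = 0.20). The sign of several of these small differences turned under other settings. Gatad2b itself was not called in interneuron-like cells in Het against WT (log2 fold change -0.46 ± 0.0818, adjusted p = 0.19), though every Het value lay below every WT value.

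Among the tested classes, the KO difference of Dpy19l1 was larger in layer II-IV-like cells than in most others. The layer V-VI-like class, with a larger log2 fold change of 1.60, chose the gene and was left out. In 1 edgeR fit over both classes with the embryo as a block, added after the class values had been seen, the log2 fold change in layer II-IV-like cells exceeded that in subventricular zone-like cells by 0.70 ± 0.0916 (adjusted p = 1.88e-05; 8.9% of genes called), in interneuron-like cells by 0.62 ± 0.0751 (adjusted p = 0.000107; 6.48% called), in mitotic-like cells by 0.60 ± 0.139 (adjusted p = 0.00939; 6.48% called) and in radial glia-like cells by 0.37 ± 0.0880 (adjusted p = 0.00686; 12.1% called). With the prefix as a covariate the differences from mitotic-like cells (0.47, adjusted p = 0.47) and radial glia-like cells (0.41, adjusted p = 0.19) were no longer called, nor were they without WT 3 (adjusted p = 0.065) and without WT 2 (adjusted p = 0.073), respectively. The larger radial glia-like cluster scored higher for oligodendrocyte precursors than for radial glia, and summed markers of those precursors in the class were 240 to 313 CPM in WT and 85.7 to 125 in KO, with mitotic markers at 1527 to 1623 and 2047 to 2157. In subventricular zone-like cells mitotic markers summed to 622 to 719 CPM in WT and 398 to 479 in KO. The part of these markers in each difference was not tested. Against striatal inhibitory-like cells it was 0.37 ± 0.167 and was not called (adjusted p = 0.19; 7.98% called), and with the prefix it was -0.25 (adjusted p = 0.71). Dpy19l3 and Dpy19l4 were called for none of these differences (adjusted p = 0.061 to 0.99).

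**Figure D3:**
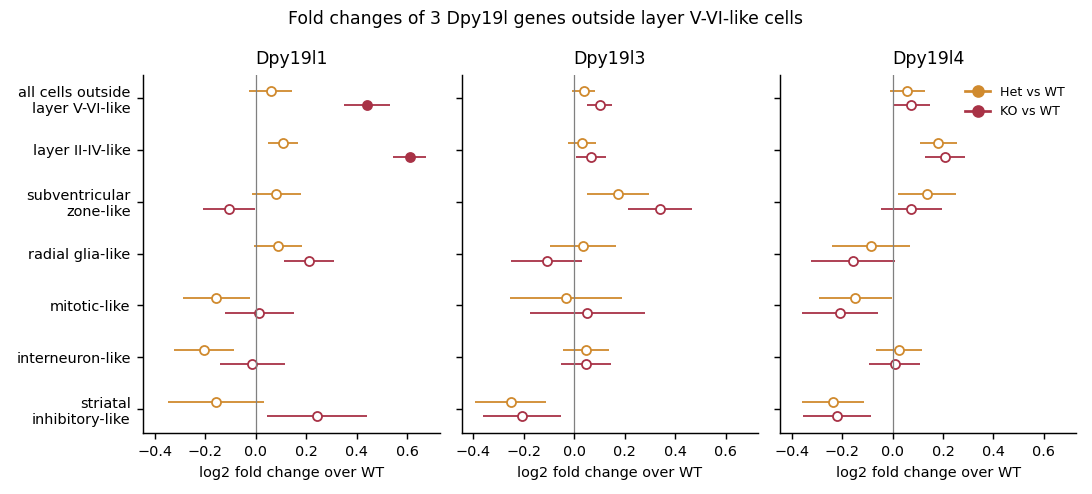
Log2 fold changes over WT (horizontal axis) of the 3 genes in Het and KO in all cells outside the layer V-VI-like class and in 6 classes, with bars of 1 SE; filled points were called and open points were not. Called points are those of Dpy19l1 in KO outside the layer V-VI-like class (0.44) and in layer II-IV-like cells (0.61).

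Genes that supply the sugar donor, and other enzymes that use it, were read from the same tests outside the layer V-VI-like class. There, all genes had 2071 called higher and 2270 lower of 17184 in KO (25.3% in all). In Het 788 were called (4.59%), and 143 to 1928 when 1 embryo was left out. The Het calls of listed genes below are from the main fit only and were not read with the prefix. With the prefix as a covariate edgeR called 0 genes of the supply list in KO (0 at an unadjusted p under 0.05, and 0 called by DESeq2 with the prefix, a test added after the data were seen), 1 of the other transferases, 8 of the thrombospondin-repeat proteins, 2 of the cytokine receptors and 9 of the migration genes, beside 1472 of all genes. Of 13 genes for the supply of dolichol-phosphate-mannose, 2 rose and 1 fell in KO, with a median log2 fold change of 0.05 beside -0.01 over all genes. Dpm1, the catalytic subunit of dolichol-phosphate-mannose synthase, went from 41.4 ± 1.47 to 52.8 ± 4.87 TMM CPM (log2 fold change 0.35, adjusted p = 0.0143). Dpm3, the small subunit that anchors it, fell from 81.6 ± 2.17 to 56.4 ± 7.35 (log2 fold change -0.53, adjusted p = 0.00221). Mpi, which makes mannose-6-phosphate, rose from 9.70 ± 0.796 to 11.6 ± 0.265 (0.26, adjusted p = 0.0145).

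Of 13 genes listed as other dolichol-phosphate-mannose transferases, 3 fell in KO (median 0.02), and 1 fell in Het. The list includes Pign, which acts in the synthesis of GPI anchors but does not transfer mannose. Tmtc1, one of the enzymes that mannosylate cadherins, fell from 9.11 ± 1.5 TMM CPM in WT to 5.35 ± 0.355 in Het (log2 fold change -0.77, adjusted p = 0.00784) and 2.03 ± 0.267 in KO (-2.17, adjusted p = 2.34e-06). Pomt1, which begins the sugar chains of dystroglycan, fell by 0.41 on the log2 scale in KO and Tmtc4 by 0.27. In layer II-IV-like cells, Tmtc4 fell further, by 1.22 (adjusted p = 9.53e-08).

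Of 55 listed proteins with thrombospondin repeats, the best known class of C-mannosylated proteins, 50 were tested, and 5 rose and 16 fell in KO (median -0.17), while 3 fell in Het. The secreted Wnt enhancer Rspo2 fell from 3.67 ± 0.232 TMM CPM to 0.553 ± 0.191 (log2 fold change -2.71, adjusted p = 2.71e-05). Adamts2, a protease of procollagen, fell in Het from 5.05 ± 1.16 to 3.17 ± 0.406 (-0.68, adjusted p = 0.0308) and to 1.15 ± 0.0821 in KO (-2.14). Adamts3, of the same group of proteases, fell by 0.42 on the log2 scale in Het and 0.65 in KO. Adamts19 (log2 fold change -1.40, from 1.04 TMM CPM in WT) and Rspo1 (-1.37, from 0.631) also fell in KO.

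The UNC5 netrin receptors did not move together. Unc5c fell from 35.1 ± 0.805 TMM CPM in WT to 28.5 ± 1.41 in Het (log2 fold change -0.30, adjusted p = 0.0212) and 18.8 ± 1.78 in KO (-0.90, adjusted p = 6.21e-06), and by 1.22 in KO in layer II-IV-like cells. Unc5d went from 65.6 ± 8.79 to 84.3 ± 7.89 in KO and was not called (0.36, adjusted p = 0.061), but was called in layer II-IV-like cells (0.40, adjusted p = 0.0138), as was Unc5b at a low level (0.69, adjusted p = 0.0313). Unc5a was at -0.02 in KO. Unc5d is also a leading gene of the cluster whose share rose in KO. In layer II-IV-like cells 9 of 37 tested genes of the list rose and 15 fell in KO (median -0.20), where 2131 of 14239 genes rose and 2241 fell.

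Of 18 tested type I cytokine receptors 2 rose and 2 fell in KO (median -0.21), and 1 rose in Het. Cntfr, the receptor of ciliary neurotrophic factor, rose from 20.3 ± 0.892 to 25.6 ± 0.420 TMM CPM in Het (log2 fold change 0.34, adjusted p = 0.012) and 29.8 ± 2.82 in KO (0.56). Il11ra1, the interleukin-11 receptor, rose in KO (0.73), and Crlf2 (-0.56) and Csf2ra (-0.29) fell.

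Of 36 genes of radial migration other than the family, 3 rose and 6 fell in KO (median -0.02), and 2 rose and 4 fell in Het. Rnd2, a small GTPase that acts in the migration of newborn neurons, rose from 55.8 ± 4.87 TMM CPM to 74.1 ± 11.3 in Het (log2 fold change 0.41, adjusted p = 0.0353) and 117 ± 4.85 in KO (1.07, adjusted p = 4.29e-05). Vldlr, a receptor of reelin, fell by 0.32 in Het and 0.76 in KO. Neurog2 (0.69), a transcription factor of neuron birth that is also on the list of subventricular zone markers, and Nde1 (0.65), a partner of the dynein motor, rose in KO. These sums hold all classes outside the layer V-VI-like one and move with class shares; in layer II-IV-like cells alone Rnd2 rose by 1.61 and Vldlr fell by 0.93 on the log2 scale in KO. Rnd2 is among the leading genes of the Unc5d and Sema3c cluster, whose share of that class was higher in KO.

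**Figure D4:**
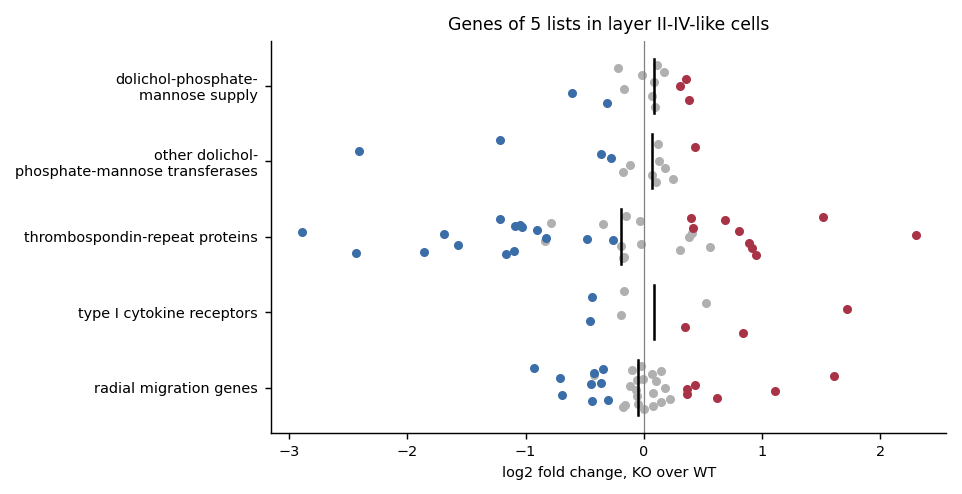
Log2 fold change in KO over WT (horizontal axis) of each tested gene of 5 lists in layer II-IV-like cells, in red where called higher, blue where called lower and grey where not called, with the list's median as a black line. In the list of proteins with thrombospondin repeats 15 genes are blue and 9 red.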

How the data were processed

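Cortex of 10 E16.5 embryos was profiled with 10X Genomics 3′ chemistry. The deposited values are raw UMI counts for every gene and barcode, made by the authors against mm10 and not normalized. The processing notes in the labels name Cell Ranger 6.0.2, whereas the study's methods name an earlier release, and which one made the matrices was not settled. Only the 3′ end of each molecule is read, so levels of different genes are not comparable.

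Cells were clustered with Seurat 5.3.0 in R 4.3.3 (2000 variable genes without the family's genes, integration by reciprocal PCA over 30 components, resolution 0.4), which gave 26 clusters. Clusters were named from lists of markers, and the naming thresholds were set after the cluster scores had been seen. UMIs were summed per embryo and class, in 6 classes with at least 100 cells in every embryo; classes with at least 20 are described by levels. The sums of the 10 embryos were fitted together in edgeR 4.0.16 (limma 3.58.1, TMM, filterByExpr, quasi-likelihood F-test) without covariates, with Benjamini-Hochberg adjustment over all genes tested. Errors of fold changes are standard errors from that fit. Replicates are embryos, and p-values measure the spread between them.

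The members and gene lists were chosen with earlier results of these data known. From each list the called genes with the largest change were named, up to 4 in KO and 2 in Het, with all UNC5 receptors. DESeq2 1.42.0, other normalization, filters, covariates, doublet removal by scanpy 1.11.5, other clustering and leaving out each embryo were the alternatives. Doublets were kept in the main analysis. Replicate numbers were not taken to pair embryos: deviations of same-numbered embryos correlated at -0.53 to 0.24 (median -0.04), and those of other numbers at -0.33 to 0.52. No protein sequence was used here. Not all of the genes closest in pattern to Dpy19l4 are reported here, while the genes named from the lists follow the rule in full.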

Additional observations from a re-analysis of the deposited data

Results flagged for a closer look

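In layer II-IV-like cells the KO against WT difference of Dpy19l1 exceeded that in 4 other classes. The test of the difference itself was added after the class values had been seen. Log2 differences were 0.62 over interneuron-like (6.48% of genes called), 0.60 over mitotic-like (6.48%), 0.37 over radial glia-like (12.1%) and 0.70 over subventricular zone-like cells (8.9%). The difference from striatal inhibitory-like cells was 0.37 and was not called (adjusted p = 0.19). It was -0.25 with the library prefix as a covariate. With that covariate the differences from mitotic-like and radial glia-like cells were not called, nor were they without WT 3 and without WT 2, respectively.

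Single Het embryos stood apart from the other 3 in 3 of 36 groups of 4 examined, where chance flags about 1 in 20. Dpy19l1 outside the layer V-VI-like class was 130.3 TMM CPM in Het 1 and 102.5 to 105.2 in the other Het embryos. Dpy19l3 in microglia-like cells was 15.0 in Het 3 and 0 in the other Het embryos, from 3 UMIs in 110 Het cells. Dpy19l4 in erythroid-like cells was 1.14 in Het 1 and 0 in the others, from 2 UMIs in 606 Het cells. Where the other embryos are all at 0, any UMI gives a flag, so the rate of 1 in 20 does not hold for these groups.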

How the results depend on the processing

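Dpy19l1 in KO against WT in layer II-IV-like cells kept its direction and its call in 21 alternatives (log2 fold change 0.49 to 0.66), leaving aside resolution 0.8 (0.75). Outside the layer V-VI-like class it kept both in 22 of 23 (0.28 with equal weight of classes to 0.52), all but the prefix as a covariate (0.33), again leaving aside resolution 0.8 (0.53). Among alternatives with a test, 267 of 286 for the main results and 542 of 604 for single classes and clusters kept direction and call. Many of these results were not called in the main fit, where keeping the call means staying uncalled. The KO against Het call of Dpy19l1 outside the layer V-VI-like class was kept in 14 of 15 alternatives and in 5 of 10 with 1 embryo left out. The number of genes called outside that class in Het against WT, 788 as reported, was 1932 with the replicate block, 52 with the prefix, 298 with only the 2 groups compared and 74 with equal weight of classes, and 143 (without WT 1) to 1928 (without Het 4) when 1 embryo was left out. In KO against WT the number was 4341 as reported, 1472 with the prefix and 2201 with equal weight, and for thrombospondin-repeat genes 21, 8 and 9. For the supply genes it was 3, 0 and 1. The cause was not tested.

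Replicate numbers were not taken as a pairing. Only Het 4 carries the number 4, so with the replicate block that embryo no longer counts in any contrast. With the replicate block Dpy19l1 outside the layer V-VI-like class was at 0.45 in KO against WT (adjusted p = 0.00125), and no other main call changed.

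The values of Dpy19l1 that turned or moved were as follows. Outside the layer V-VI-like class, Het against WT was -0.026 with the prefix and -0.031 at 5% mitochondrial UMIs or less, and -0.036 to 0.14 without single embryos, and KO against Het was 0.25 with equal weight (adjusted p = 0.081) and 0.35 to 0.48 without single embryos. In layer V-VI-like cells, without a test, it was 0.71 in Het and 1.95 in KO with the prefix, and in KO 1.78 at resolution 0.8 and 1.80 without integration. In interneuron-like cells KO was at 0.13 without doublets, 0.13 at 5% mitochondrial UMIs or less, 0.016 at resolution 0.8 and 0.20 without integration, and -0.12 to 0.11 without single embryos. In mitotic-like cells Het was at 0.049 and KO at -0.0019 without doublets, KO at -0.040 at 5% mitochondrial UMIs or less and -0.17 at resolution 0.8, and -0.11 to 0.13 without single embryos. In subventricular zone-like cells KO was at 0.13 at resolution 0.8 and 0.10 without integration, and Het at -0.0026 to 0.18 without single embryos. In striatal inhibitory-like cells Het was at 0.23 and KO at 0.84 with the prefix, and KO at -0.13 without integration. The layer II-IV-like minus striatal inhibitory-like difference was -0.25 with the prefix, and Het in the Fam19a1 and Tfap2d cluster -0.0018.

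Dpy19l3 outside the layer V-VI-like class was -0.085 in Het, -0.095 in KO and -0.010 in KO against Het with equal weight. In layer II-IV-like cells it was -0.050 in Het and -0.12 in KO at resolution 0.8 and -0.014 in KO without integration, and KO against Het was -0.015 at 5% mitochondrial UMIs or less, -0.074 at resolution 0.8, -0.023 without integration and -0.0078 to 0.062 without single embryos. Dpy19l4 was -0.070 in Het and -0.049 in KO with equal weight, and KO against Het was -0.011 without doublets and -0.038 to 0.060 without single embryos. In layer II-IV-like cells KO against Het was -0.029 to 0.080 without single embryos, and in layer V-VI-like cells KO was 0.14 at 5% mitochondrial UMIs or less and -0.069 at resolution 0.8. None of these Dpy19l3 and Dpy19l4 values was called.

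At resolution 0.8 the layer V-VI-like class takes in a cluster of 2024 cells, 1931 of them striatal inhibitory-like at resolution 0.4, so its values are partly of inhibitory cells. The layer II-IV-like class then loses 4488 cells led by Unc5d, named subventricular zone-like there, and takes in a cluster of 2192 cells, 1852 of them from the Ldb2 and Fezf2 cluster of the layer V-VI-like class, so both values at that resolution use deep-layer cells that chose the gene. Clusters were not tested under other clusterings. Het 4, the Het embryo with the WT prefix, had 105.2 TMM CPM of Dpy19l1 outside the layer V-VI-like class (log2 ratio to the WT mean -0.01) and 164.6 in layer II-IV-like cells (0.09), both inside the WT range, and 121.3 in layer V-VI-like cells (0.71), above it.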
